A study of Mus musculus with 20 samples.

Results

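The intervals described here are stretches of the mouse genome between neighbouring CCCGGG sites whose read count, a relative measure of methylation at both end sites, was at least 2-fold lower at postnatal day 21 (P21) than on the day of birth (P0) in hypothalamic neurons, while it stayed within a window around no change in non-neurons. They number 563 of the 27259 intervals that held enough reads, or 2.07%, and of the 50782 intervals listed. Each library's counts were divided by its median count over the 15147 intervals with at least 20 reads in all 20 libraries, the scaled values were averaged per group, and intervals with at least 10 reads in at least 5 libraries were kept. Members had a P21 over P0 ratio of at most 0.5 in neurons and of 0.67 to 1.5 in non-neurons. These ratios chose the members, so they and every age comparison of the members are given as a description. The label of the set, a loss in neurons only, goes beyond the data: 484 of the 563 members also had a ratio below 1 in non-neurons, and the median ratio there was 0.785. They are called neuron-reduced intervals, or members, from here on.

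Methylation of cytosine in CG dinucleotides is a covalent DNA mark that is copied at cell division. It is lost either when it is not copied or when TET enzymes oxidise it and repair replaces the base, a route that also works in cells that no longer divide, such as neurons. Most hypothalamic neurons have left the cell cycle by birth, whereas astrocytes and oligodendrocytes, which are not neurons, continue to form after birth.

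Nuclei came from the hypothalamus of inbred male C57BL/6 mice with no genetic change or treatment. They were sorted into neuronal nuclei, which stain for the nuclear protein NeuN, and non-neuronal nuclei, which do not, and the groups were P21 neurons, P0 neurons, P21 non-neurons and P0 non-neurons with 5 libraries each. Each sample pooled 2 hypothalami of one age. The non-neuronal fraction is a mixture of cell types, and neurons of all hypothalamic classes were pooled, so a change of methylation within cells and a change in the mixture of nuclei cannot be told apart here. The assay cuts unmethylated CCCGGG with SmaI and then methylated CCCGGG with XmaI, and an interval is amplified when both of its ends were methylated. Levels are in CPM, read counts scaled to library sizes corrected by TMM, and show relative methylation, not a percentage of molecules.

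Libraries held 5663740 to 9998110 reads. P0 neuron replicates 1 to 3 stood apart from replicates 4 and 5 on the third principal component of log2 CPM, at 30.2 to 44.3 against -18.9 and -15.7. P0 non-neuron replicates 1 to 3 lay at -16.2, -8.45 and 9.22 on it, and replicates 4 and 5 at -27.2 and -42.6. With P0 replicates 1 to 3 alone the rule chose 488 intervals, 341 of them among the 563 members. With P0 replicates 4 and 5 alone it chose 824, of which 355 were members, and 223 members were chosen by both. The member intervals took 0.536% to 0.592% of all reads in P21 neuron libraries, against 0.991% to 1.06% in P0 neuron libraries. The shares were 0.935% to 1.06% in P21 non-neuron and 1.04% to 1.14% in P0 non-neuron libraries.

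Most neuron-reduced intervals were thinly covered. The median member averaged 1.54 CPM in P21 neurons, 3.59 in P0 neurons, 2.98 in P21 non-neurons and 3.56 in P0 non-neurons, with a median of 21 reads per P0 neuron library. Over all intervals with enough reads the corresponding medians were 9.64, 7.82, 8.83 and 7.76 CPM. The drop in neurons was moderate for most members: the ratio of scaled counts lay between 0.4 and 0.5 in 354, between 0.25 and 0.4 in 172, and below 0.25 in the rest. In non-neurons 304 members sat between 0.67 and 0.8, 180 between 0.8 and 1, and the rest between 1 and 1.5. Within each P21 neuron library, the median member held 0.394 to 0.485 of its P0 neuron mean, and within each P21 non-neuron library 0.728 to 0.952. P21 non-neuron replicate 1 gave the 0.952 and the other 4 gave 0.842 or less. Without that library the rule chose 467 intervals, 439 of them members.

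**Figure D1:**
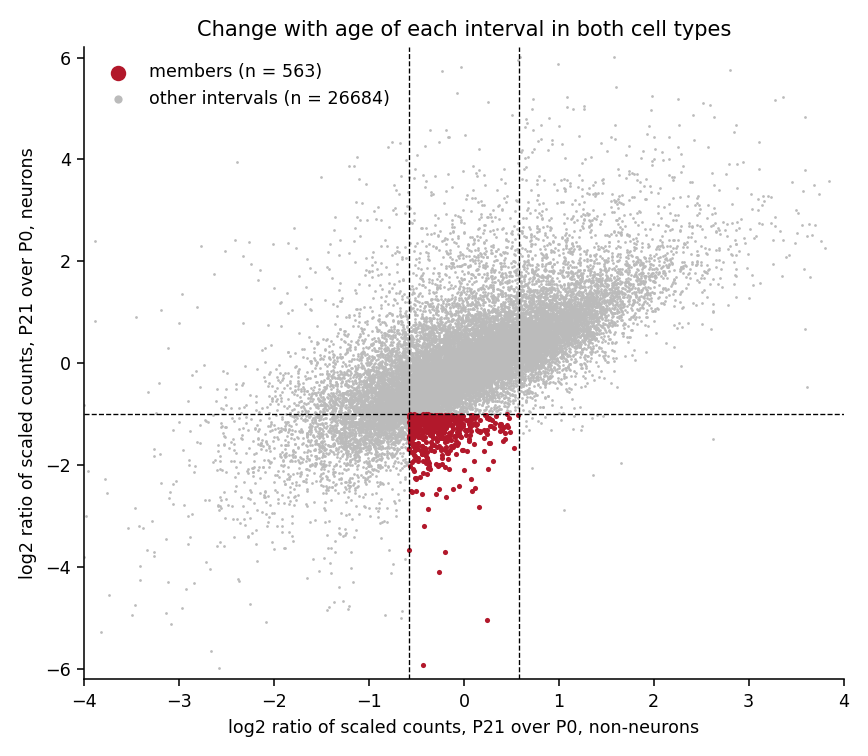
Log2 ratio of scaled counts at P21 over P0 in non-neurons (horizontal axis) and neurons (vertical axis), with one point per interval that passed the read filter; dashed lines mark the thresholds of the rule. The 563 members (red) crowd against the 0.5 line for neurons and the 0.67 line for non-neurons and continue the cloud of intervals that were lower at P21 in both cell types; 45 intervals with a ratio of 0, no defined ratio or a value beyond the axes are not drawn.

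A quasi-likelihood fit of all 20 libraries (edgeR, adjusted p under 0.05 over all 26679 tested intervals) covered 543 members, and 20 members had too few reads for it. It called 507 of the 543 lower in P21 than P0 neurons, beside 26.3% of all tested intervals, a count that the rule itself sets. In 306 members all 5 P21 neuron values lay below all 5 P0 neuron values, beside 18.6% of tested intervals. In non-neurons 86 members were called lower at P21 (25.8% of tested intervals) and 2 were called higher (28.5% of tested intervals). The difference between the age changes of the cell types, the interaction, was called below 0 for 169 members, beside 3.24% of tested intervals. A fall in neurons, no call in non-neurons and an interaction below 0 came together in 106 members (19.5%), beside 1.2% of all tested intervals, a pattern the rule selects for. The 86 members that fell in both cell types were 15.8%, near the 18.4% of all tested intervals, and the window in non-neurons acts on this share. On the log2 CPM scale the median change of the 543 members was -1.10 in neurons and -0.32 in non-neurons, against 0.06 and 0.03 over all tested intervals. The median-count scaling of the rule reads neuronal change lower than TMM does, so members reached up to -0.84 on the log2 CPM scale, and with TMM scaling in the rule 421 intervals qualified, 390 of them members.

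These counts followed the number of reads. Among members with at least 10 CPM in P0 neurons, all but 1 were called lower in P21 neurons (124), 76 were called lower in P21 non-neurons as well, and 96 had an interaction below 0. Of all tested intervals at this level, 38.4% were called lower in neurons and 39.2% in non-neurons. The interaction was not counted by level over all tested intervals. Its share over all levels was 3.24%, and the rule selects for an interaction below 0. Among 295 members at 2 to 10 CPM, the numbers were 292, 10 and 65 of 294 tested, beside 20.6% of all tested intervals of this level in neurons and 18.2% in non-neurons. Among 143 members under 2 CPM, 91 of 124 tested were called in neurons, 0 in non-neurons and 8 for the interaction, beside 6.73% and 6.69% of all tested intervals in neurons and non-neurons. The well covered members held a larger share of falls in non-neurons than all intervals of their level, and the thinner members a smaller one. The rule bounds the non-neuron ratio of members and so acts on these shares. The contrast with all intervals is a description of the choice. The median ratio in non-neurons was 0.762 in the best covered members and 0.831 in the thinnest, and a missing call at low coverage does not show that non-neurons kept their level.

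The 6 members described next had the lowest ratios in neurons among those with at least the median level in P0 neurons. The interval chr5:37634279-37635040 (761 bp) had 0, 0.176, 0, 0.879 and 0.791 CPM in P21 neurons, against 4.67, 4.80, 3.52, 5.32 and 3.94 CPM in P0 neurons. In P21 non-neurons it had 5.16, 6.74, 7.17, 6.95 and 7.63 CPM, against 6.57, 5.45, 7.49, 8.18 and 9.90 CPM in P0 non-neurons. Every P21 neuron library lay below every P0 neuron library, while the non-neuron libraries overlapped between ages. The log2 fold change was -3.55 ± 0.39 (SE) in neurons and -0.15 ± 0.25 in non-neurons. It rests on 0, 2, 0, 8 and 7 reads in the P21 neuron libraries.

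At chr11:80296307-80297734 (1427 bp) P21 neurons had 2.66, 2.46, 2.15, 1.54 and 2.15 CPM, against 11.6, 15.7, 13.4, 16.5 and 15.8 CPM in P0 neurons. P21 non-neurons had 23.3, 43.0, 41.8, 34.0 and 36.1 CPM, against 43.9, 46.2, 44.5, 46.0 and 45.2 CPM in P0 non-neurons. Neurons were already below non-neurons at birth in every library here, and the gap widened by P21. All P21 non-neuron values were also below all P0 non-neuron values, with replicate 1 the lowest, so this member moved in both cell types (log2 fold change -2.73 ± 0.18 in neurons and -0.34 ± 0.12 in non-neurons, SE).

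The best measured of the strong drops was chr10:126695823-126696812 (989 bp). P21 neurons had 13.6, 9.33, 11.7, 14.9 and 13.8 CPM, against 61.4, 64.9, 74.7, 65.0 and 61.9 CPM in P0 neurons. P21 non-neurons had 83.4, 78.9, 107.9, 86.7 and 102.8 CPM, against 86.4, 80.7, 84.4, 87.7 and 81.9 CPM in P0 non-neurons. The neuron groups were far apart and the non-neuron groups overlapped, with log2 fold changes of -2.38 ± 0.11 and 0.13 ± 0.10 (SE). The interval was chosen by the rule with every 1 of the 20 libraries left out and under the 4 other scalings.

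The other members of this kind had lower counts. At chr19:6501619-6502946 (1327 bp) P21 neurons had 3.17, 1.58, 1.54, 1.87 and 2.71 CPM, against 10.6, 9.14, 11.6, 13.4 and 11.98 CPM in P0 neurons. P21 non-neurons had 8.37, 12.5, 9.89, 9.45 and 8.69 CPM, against 13.5, 12.8, 16.7, 13.4 and 13.7 CPM in P0 non-neurons. Both cell types were lower at P21 in every library, by a log2 fold change of -2.40 ± 0.20 in neurons and -0.52 ± 0.17 in non-neurons (SE), and the ratio of 0.680 in non-neurons lay just inside the window.

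At chr2:92369244-92369761 (517 bp) P21 neurons had 1.77, 0.440, 0.717, 1.98 and 0.113 CPM, against 6.75, 4.20, 7.74, 5.15 and 4.398 CPM in P0 neurons. P21 non-neurons averaged 5.92 ± 2.18 CPM and P0 non-neurons 6.64 ± 2.28 CPM (SD, n = 5 each), and these groups overlapped. At chr9:103015725-103017731 (2006 bp) P21 neurons had 0.507, 0.792, 0.717, 0.440 and 1.58 CPM, against 3.46, 3.60, 2.64, 5.32 and 5.46 CPM in P0 neurons. The non-neuron groups overlapped here too, at 3.70 ± 0.98 CPM at P21 and 3.86 ± 2.10 CPM at P0 (SD, n = 5 each). Of these 6 members, 5 were chosen with each library left out, and chr19:6501619-6502946 in 18 of 20 cases.

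**Figure D2:**
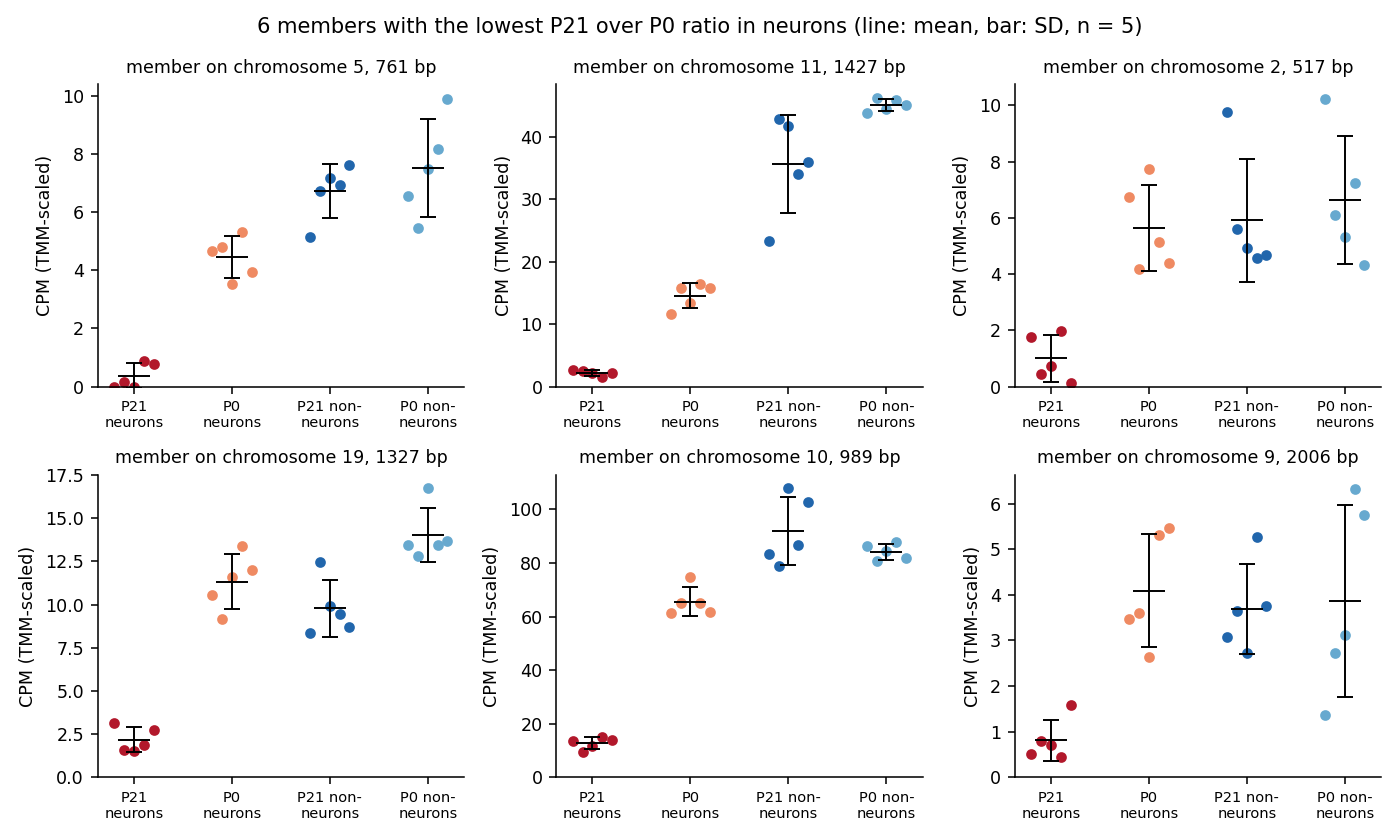
CPM per library (points) at the 6 members with the lowest P21 over P0 ratio in neurons among members with at least the median level, for P21 neurons, P0 neurons, P21 non-neurons and P0 non-neurons, with the mean (line) and SD (bars, n = 5). In each panel the P21 neuron points lie below all P0 neuron points, and the chromosome 11 and 19 members are also lower in P21 than P0 non-neurons in all libraries.

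Ratios below 0.05 in neurons were found at 2 thinly covered members, named after their values were seen. The interval chr12:100138193-100139604 held 1 read over the 5 P21 neuron libraries and 42 over the 5 P0 neuron libraries, a ratio of 0.0155 for summed reads corrected for depth (95% exact interval 0.000383 to 0.0912, counting error only). The interval chr14:70750359-70750869 held 2 and 46 reads in these groups, a ratio of 0.0283 (0.00333 to 0.108). Non-neurons averaged 1.02 ± 0.52 CPM at P21 and 1.35 ± 0.59 at P0 in the first interval and 2.98 ± 0.50 and 2.47 ± 0.91 in the second (SD, n = 5 each).

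At the other end, the 4 members with the most reads were less clear-cut cases. The highest was chr17:39981602-39983065, with 410.6 to 733.5 CPM in P21 neurons and 673.8 to 1531 CPM in P0 neurons, and with 651.4 to 1280 CPM in P21 non-neurons and 803.1 to 1771 CPM in P0 non-neurons. Its groups overlapped in both cell types, and it was chosen in 16 of the 20 cases with a library left out. How reads that map to several places were counted is not stated by the labels or the deposited table. At chr8:124074591-124075306 P21 neurons averaged 271.4 ± 24.3 CPM and P0 neurons 508.1 ± 32.2 CPM, while P21 non-neurons averaged 386.0 ± 34.2 CPM and P0 non-neurons 548.0 ± 34.4 CPM (SD, n = 5 each). There and at chr17:31235817-31236710, with 203.5 ± 11.7 CPM in P21 neurons against 383.9 ± 27.9 CPM in P0 neurons, the 4 other scalings left the interval outside the rule. At chr11:118747016-118747467 P21 neurons averaged 164.0 ± 19.98 CPM and P0 neurons 340.3 ± 18.2 CPM, and P21 non-neurons 283.5 ± 38.5 CPM against 353.5 ± 40.4 CPM in P0 non-neurons. All 4 thus had lower means at P21 in non-neurons as well.

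The ratio of the cell types at birth was not itself a condition of the rule but rests on the same P0 libraries. At P0, 478 of the 563 members had a neuron over non-neuron ratio of 0.67 to 1.5 (84.9%, against 85.9% of intervals with enough reads), 63 had a lower and 22 a higher ratio. The fit called 24 members lower and 15 higher in P0 neurons than in P0 non-neurons, beside 2.86% and 6.92% of tested intervals, and the members' shares were 4.42% and 2.76%. The ratio at P21 follows from the ratio at P0 and the 2 ratios of the rule, so its values only describe the choice. Its median was 0.484, and 7 members were at 1 or above (1.24%), beside 31.9% of intervals with enough reads. The 63 members that began lower had a median of 0.241 at P21 and 0.552 at P0.

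The 22 members that began higher in neurons were mostly below the non-neuronal level at P21. Their median ratio was 0.772 at P21 and 1.77 at P0, and 15 of them were below 1 at P21. At chr10:59370101-59370814 P21 neurons had 5.32, 4.58, 4.92, 5.83 and 5.31 CPM, against 18.2, 22.6, 15.3, 12.9 and 21.8 CPM in P0 neurons. P21 non-neurons had 6.97, 4.49, 5.44, 5.56 and 5.402 CPM, against 7.34, 9.14, 9.26, 6.79 and 7.20 CPM in P0 non-neurons. All P0 neuron libraries lay above all P0 non-neuron libraries, and the cell types overlapped at P21. At chr5:141139353-141139823 neurons stayed higher, with 53.3 ± 5.34 CPM in P21 neurons and 109.4 ± 4.38 in P0 neurons, and 22.0 ± 4.12 CPM in P21 non-neurons and 32.1 ± 3.59 in P0 non-neurons (SD, n = 5 each). The lowest starting ratio belonged to chr14:65213241-65214128, which averaged 1.03 ± 0.52 CPM in P21 neurons and 1.93 ± 0.95 in P0 neurons, and 18.0 ± 2.94 CPM in P21 non-neurons and 16.7 ± 2.53 in P0 non-neurons. Its neuron groups overlapped, and it left the set under all 4 other scalings. The interval chr5:34892563-34893165 also began low, with 1.29 ± 0.51 CPM in P21 neurons against 9.59 ± 1.61 CPM in P21 non-neurons, and 2.92 ± 0.995 CPM in P0 neurons against 9.11 ± 2.15 CPM in P0 non-neurons.

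Members shared cut sites in 22 pairs, so 44 members touched another member. Members of a pair are not independent, because an unmethylated site between them removes both. The pair with the lowest ratios was chr5:37634279-37635040, described above, with chr5:37635040-37635255 (215 bp), which held 2 reads in all 5 P21 neuron libraries and 22 in P0 neurons, a ratio of 0.0592 (95% exact interval 0.00674 to 0.241, counting error only). In non-neurons this short member was also thin, at 1.31 ± 0.45 CPM at P21 and 1.55 ± 0.35 CPM at P0 (SD, n = 5 each). A further member lay on the same side: chr5:37636300-37637235 had 3.80, 3.70, 4.00, 3.30 and 3.28 CPM in P21 neurons, against 10.03, 12.4, 10.02, 9.27 and 12.7 CPM in P0 neurons. Its non-neuron values were 7.65 ± 1.19 CPM at P21 and 9.31 ± 0.92 CPM at P0.

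The interval in front of that member, chr5:37635709-37636300, averaged 5.68 ± 1.19 CPM in P21 neurons and 17.6 ± 2.45 in P0 neurons (-1.64 ± 0.16 on the log2 scale, SE, with an edgeR adjusted p = 4.04e-11), and 11.1 ± 2.01 CPM in P21 non-neurons against 17.2 ± 2.53 in P0 non-neurons (-0.63 ± 0.16). Its ratio of 0.629 in non-neurons is what kept it out of the set, so that change is a description. The interval ends at the cut site where the member chr5:37636300-37637235 starts. Its neuronal fall thus depends on a site of a member and is not separate from the choice. On the other side, chr5:37631957-37634279, which shares the first cut site, was 1.67 ± 0.91 CPM in P21 neurons and 2.01 ± 0.44 in P0 neurons (edgeR adjusted p = 0.582). In non-neurons that interval fell, with 1.14 ± 0.50 CPM at P21 and 2.45 ± 0.94 CPM at P0 (edgeR adjusted p = 0.0183).

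A longer stretch was found on chromosome 19. From chr19:6501492-6501619 to chr19:6504415-6505533, 4 of 5 measured intervals were members and the fifth, chr19:6502964-6503681, had a ratio of 0.541 in non-neurons, below the window. The fifth ends at the cut site where the member chr19:6503681-6504415 starts, so its neuronal fall is not separate from the choice. That interval averaged 2.70 ± 0.83 CPM in P21 neurons and 12.9 ± 2.97 in P0 neurons (-2.24 ± 0.20 on the log2 scale, SE, with an edgeR adjusted p = 1.11e-12), and 9.91 ± 1.47 CPM in P21 non-neurons against 17.9 ± 2.03 in P0 non-neurons (-0.86 ± 0.17). The stretch was drawn from its first to its last member. The next interval, which touches the last member, was no member. It changed by -1.25 ± 0.21 in neurons and -0.91 ± 0.22 in non-neurons (log2, SE). The change was not uniform along the stretch. In neurons the log2 fold changes of the 4 members were -1.97 ± 0.29, -2.40 ± 0.20, -0.95 ± 0.13 and -1.49 ± 0.13 (SE) in genomic order. At chr19:6503681-6504415 the non-neuron groups overlapped, with 16.1 ± 1.53 CPM at P21 and 13.2 ± 2.47 CPM at P0, and this member was chosen under 1 of the 4 other scalings. Its neighbour chr19:6504415-6505533 had 16.4 ± 2.50 CPM in P21 neurons against 46.1 ± 4.70 in P0 neurons and 13.7 ± 2.86 CPM in P21 non-neurons against 19.0 ± 3.35 in P0 non-neurons. Its neuron over non-neuron ratio was 1.06 at P21 and 2.28 at P0.

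The third pair, on chromosome 10, had similar changes in both of its intervals. At chr10:79806378-79807304 P21 neurons had 16.3, 16.4, 17.5, 16.2 and 19.3 CPM, against 49.3, 74.2, 73.3, 56.5 and 64.3 CPM in P0 neurons. At chr10:79807304-79808057 P21 neurons averaged 9.53 ± 0.55 CPM, against 36.0, 31.5, 29.2, 36.0 and 38.4 CPM in P0 neurons (34.2 ± 3.75, SD, n = 5 each). The neuron groups did not overlap in either interval. Non-neurons averaged 35.1 ± 8.94 CPM at P21 and 50.7 ± 7.87 at P0 in the first interval, and 23.3 ± 2.49 and 28.0 ± 3.30 in the second (SD, n = 5 each). The ratio of 0.676 put the first close to the lower edge of the window, and it was chosen in 15 of the 20 cases with a library left out.

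**Figure D3:**
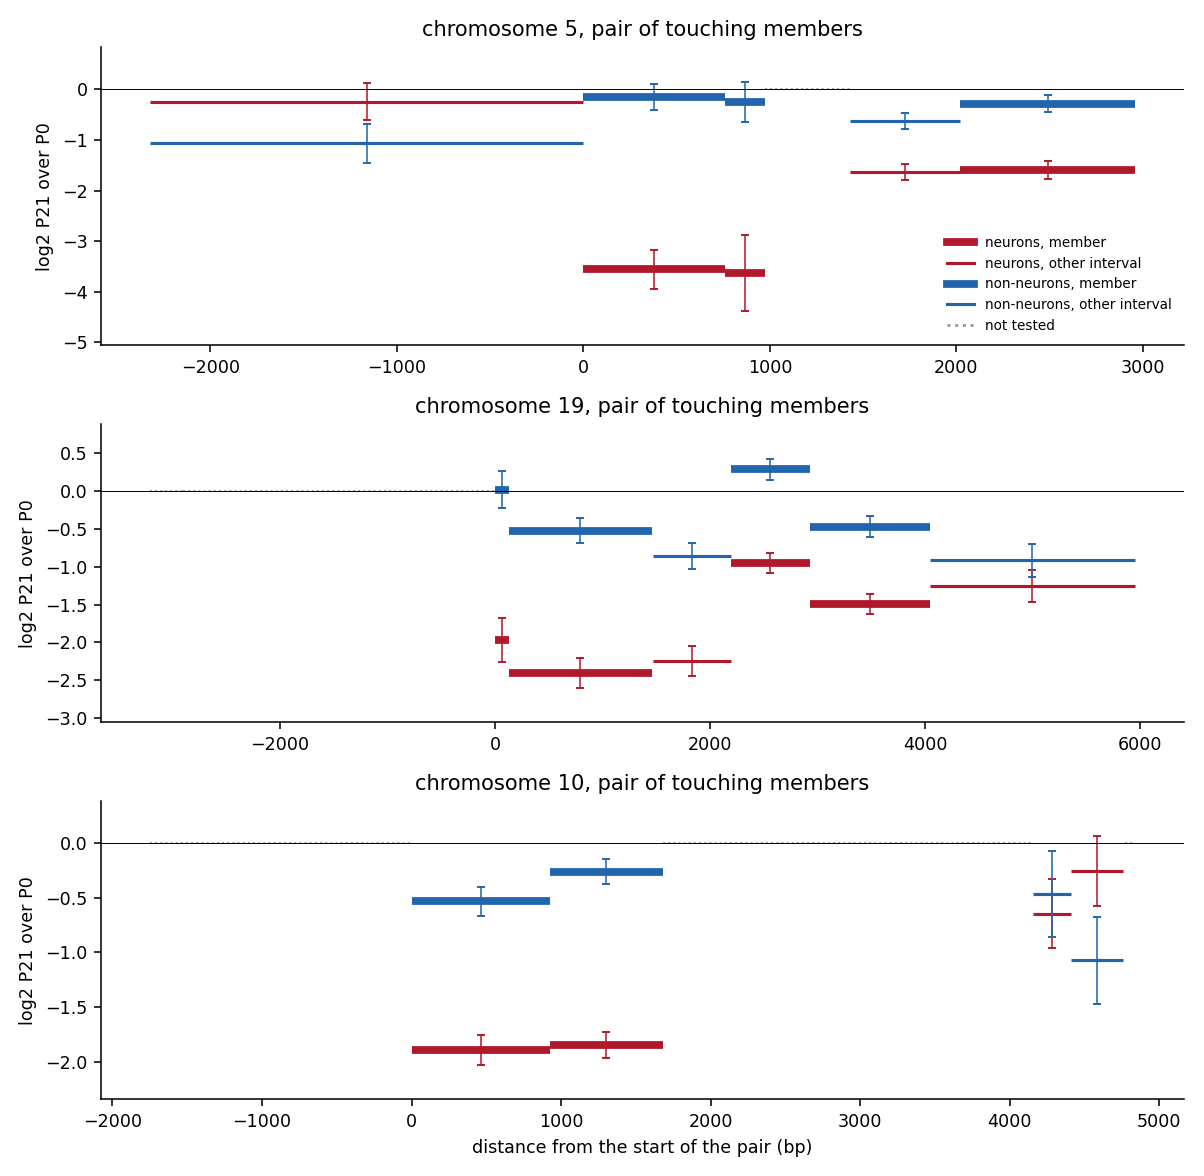
Log2 fold change of P21 over P0 (bars: SE) of each interval around the 3 pairs of touching members with the lowest ratios, against distance in bp from the start of the pair; horizontal extent is the interval, thick lines are members, thin lines other tested intervals, dotted lines at 0 intervals not tested. The neuronal values (red) of the chromosome 5 pair lie near -3.6, those of the chromosome 19 stretch between -2.40 and -0.95, and those of the chromosome 10 pair near -1.9, all below the non-neuronal values (blue) of the same members.

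Members differed from other intervals in length, which the rule did not use, and in level, which its read filter and the scatter of ratios act on. Intervals under 200 bp made up 116 members (20.6%), against 8.25% of intervals with enough reads, and those of 2400 to 3000 bp 17.8% against 14.0%. Intermediate lengths were under-represented, with 20.96% against 27.45% from 800 to under 1600 bp. Length went with level over all tested intervals. Their median in P0 neurons was 2.4 CPM under 200 bp, 3.1 at 2400 to 3000 bp and 22 from 800 to under 1600 bp. The differences in length and in level were not told apart. Short intervals as a whole changed differently in the cell types: the 2110 tested intervals under 200 bp had a median log2 change of 0.06 in neurons and 0.36 in non-neurons, and a median interaction of -0.33, against -0.05 over all tested intervals. The part of amplification or of size selection in this pattern was not tested. By level, 38.2% of members averaged 2 to 5 CPM in P0 neurons, against 20.7% of all intervals with enough reads, and 9.41% averaged 50 CPM or more, against 20.3%. Ratios of thin intervals vary more by counting alone, and the share of members chosen with each library left out was 20.98% under 2 CPM, 34.2% at 2 to 10 CPM and 49.6% at 10 CPM or more.

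**Figure D4:**
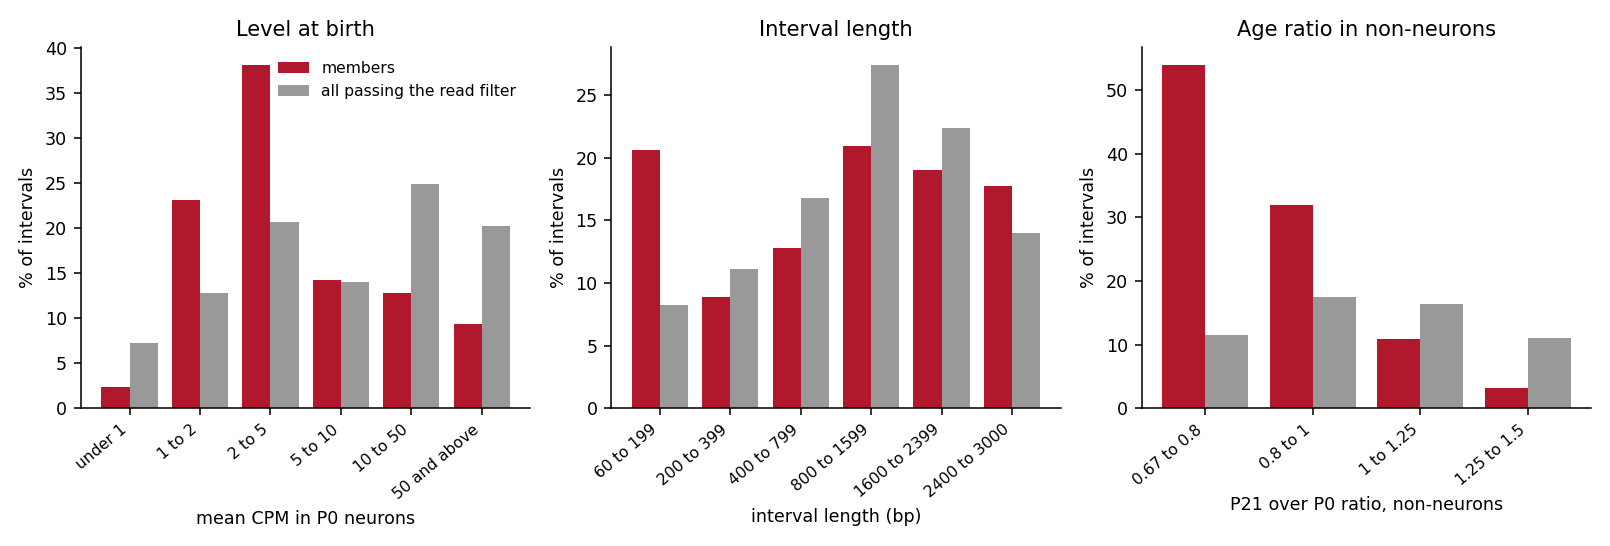
Share of members (red) and of all 27259 intervals that passed the read filter (grey) by mean CPM in P0 neurons, interval length in bp, and P21 over P0 ratio in non-neurons; the third panel shows only the window of the rule, which all members but not all other intervals fall in. Members are most frequent at 2 to 5 CPM, over-represented below 200 bp, and concentrated at ratios of 0.67 to 0.8 in non-neurons.

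Members were spread over all chromosomes. Per 100 intervals with enough reads there were 1.32 members on the X chromosome and 3.17 on chromosome 15 (42 members), with the other autosomes between these values, and 1 of 13 on the Y chromosome. Of the members, 42.8% had no listed interval touching them, against 47.3% of intervals with enough reads, a difference of a few percentage points. Another member lay within 2000 bp without a shared cut site at 8 members (1.42%), a share that was not compared with other intervals.

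Tested intervals near a member were compared with all tested intervals. Taken by distance alone, with members kept in, 103 intervals lay within 2000 bp of another member and shared no cut site with one. Of these 54 fell with age in neurons (52.4%, against 26.3% of all tested intervals) and 12 rose (11.7%, against 31%). In non-neurons 32 fell (31.1%, against 25.8%) and 12 rose (11.7%, against 28.5%). The median log2 change was -0.48 in neurons and -0.27 in non-neurons. The interaction was below 0 at 15 and above 0 at 8, or 14.6% and 7.77%, against 3.24% and 10.9% of all tested intervals. This choice by distance was made after the data were seen. The set first planned left out the members, and so removed neighbours by their own ratios: 51 of its 100 intervals fell in neurons and 32 in non-neurons. The median level in P0 neurons was 10.5 CPM in the 103 and 10.4 CPM in the 100, against 8.25 CPM over all tested intervals. Of all tested intervals, 38.4% at 10 CPM or more and 20.6% at 2 to 10 CPM fell in neurons. In non-neurons these shares were 39.2% and 18.2%. The neighbours were not compared with intervals of the same level. Among 212 non-members that touched a member, and so depend on one of its sites, 110 fell in neurons (51.9%) and 96 in non-neurons (45.3%). Leaving out members removed intervals by their own ratios here too. With members kept in, 254 intervals touched another member, and 152 fell in neurons (59.8%) and 105 in non-neurons (41.3%). The rule itself sets the falls of the members among them. In non-members beyond 2000 bp the median neuronal change was -0.17 at 2000 to 5000 bp and -0.04 at 50000 to 100000 bp, and in intervals over 100000 bp from any member it was 0.11. At 5000 to 10000 bp the median was -0.24 in neurons and -0.21 in non-neurons.

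**Figure D5:**
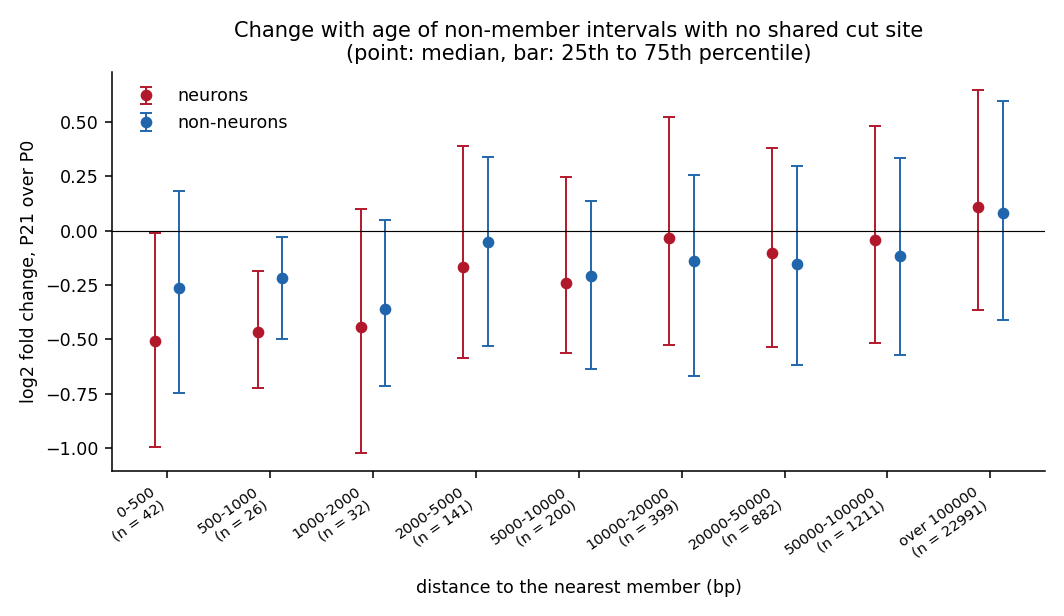
Median log2 fold change of P21 over P0 (points; bars from the 25th to the 75th percentile) of non-member intervals with no cut site shared with a member, by distance to the nearest member in bp, in neurons (red) and non-neurons (blue). Within 2000 bp of a member the neuronal medians lie at -0.51 to -0.44 and the non-neuronal ones at -0.36 to -0.22; over 100000 bp away they are 0.11 and 0.08. Leaving out members removes intervals by their own ratios at every distance.

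The 5 non-member neighbours with the smallest adjusted p in neurons all had a neuron ratio under 0.5. As non-members they had to lie outside the window in non-neurons, so their non-neuron change and their interaction are given as a description. The interval chr4:139131319-139132026, 561 bp from the member chr4:139132587-139135210, had 6.33, 7.83, 5.43, 8.79 and 8.02 CPM in P21 neurons, against 39.4, 39.1, 37.5, 37.1 and 42.2 CPM in P0 neurons. P21 non-neurons had 18.3, 21.5, 18.7, 15.2 and 14.8 CPM, against 42.5, 39.3, 34.6, 36.9 and 38.7 CPM in P0 non-neurons. The age groups did not overlap in either cell type, and the cell types were level at birth and apart at P21. The log2 fold change was -2.42 ± 0.13 in neurons (SE, with an edgeR adjusted p = 2.66e-19) and -1.12 ± 0.12 in non-neurons, with an interaction of -1.30 ± 0.18. The member beside it averaged 3.12 ± 0.69 CPM in P21 neurons and 9.42 ± 1.55 in P0 neurons, and 6.49 ± 1.28 CPM in P21 non-neurons and 9.11 ± 1.18 in P0 non-neurons (SD, n = 5 each).

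At chr2:167456365-167456949 the change was -1.48 ± 0.13 in neurons (SE, with an edgeR adjusted p = 2.85e-12) and -0.69 ± 0.13 in non-neurons, with an interaction of -0.78 ± 0.19. At chr10:126721471-126722226 the change was -1.34 ± 0.11 in neurons (SE, with an edgeR adjusted p = 3.34e-13) and -1.28 ± 0.11 in non-neurons, with an interaction of -0.06 ± 0.16. The remaining 2, chr10:80850038-80850529 and chr2:174125152-174125550, changed by -1.04 ± 0.10 and -1.08 ± 0.11 in neurons and by -0.73 ± 0.10 and -0.73 ± 0.11 in non-neurons (SE).

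Beside the best measured strong drop, chr10:126695823-126696812, the touching interval chr10:126694078-126695823 lay above the window in non-neurons, at a ratio of 1.71, and so was no member. It had 4.69, 5.19, 5.22, 5.28 and 8.59 CPM in P21 neurons, against 12.3, 13.04, 11.96, 10.5 and 11.1 CPM in P0 neurons, and 15.6, 24.0, 24.9, 18.5 and 24.0 CPM in P21 non-neurons, against 12.8, 8.82, 13.2, 12.5 and 13.3 CPM in P0 non-neurons. The age groups did not overlap in either cell type. The log2 fold change was -1.02 ± 0.17 in neurons (SE, with an edgeR adjusted p = 3.6e-06) and 0.82 ± 0.16 in non-neurons. This interval ends at the cut site where the member starts, so its neuronal fall is not separate from the choice. Its non-neuron change kept it out of the set and is a description. One interval further, chr10:126693196-126694078 averaged 18.1 ± 2.78 CPM in P21 neurons and 30.0 ± 2.80 in P0 neurons (-0.73 ± 0.14, SE, with an edgeR adjusted p = 4.24e-05), and 32.3 ± 6.55 CPM in P21 non-neurons against 26.5 ± 7.07 in P0 non-neurons (edgeR adjusted p = 0.0853). Of 20 members with tested non-members touching both ends, both neighbours fell in neurons at 7, 1 of them at 8 and neither at 5. At 170 members with only 1 tested non-member touching, that neighbour fell in neurons at 88. Of all tested intervals 26.3% fell in neurons, and these neighbours share a cut site with the member. Members were not counted as neighbours here, which removes intervals by their own ratios.

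The thresholds cut through a continuous range. Nearest to the neuronal limit, chr6:85290280-85292802 was inside at 0.4998 and chr5:122110529-122112683 outside at 0.5002. At the lower limit in non-neurons, chr5:22917575-22918499 was inside at 0.6703 and chr6:118426935-118429253 outside at 0.6695. At the upper limit, chr16:62529171-62529320 was inside at 1.487 and chr2:32207016-32207201 outside at 1.538.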

How the data were processed

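The authors deposited one table of read counts for SmaI/XmaI intervals of 60 to 3000 bp, by position on mm9, covering all 20 libraries. The values are whole numbers whose sums differ between libraries, so they were used as unnormalised counts. According to the submitters' processing notes, FastQC 0.10.1, cutadapt and Bowtie 0.12.9 were used on mm9. How reads were assigned to intervals is not stated there. Genes and sequences at the intervals were not analysed here.

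Columns were matched to libraries by age, cell type letter and replicate number. Intervals were filtered with edgeR 4.0.16 (filterByExpr with a minimum count of 10 and a minimum total of 15, R 4.3.3), scaled by TMM and fitted with 1 mean per group over all 20 libraries (robust quasi-likelihood, Benjamini-Hochberg adjusted p under 0.05, common biological variation 13.8%). An SE is the log2 fold change over the square root of F. DESeq2 1.42.0, other scalings and filters, and each library left out were alternatives, and the procedure was tested on simulated data. Members and lists were chosen with earlier results of these data known. Intervals were named by lowest neuron ratio, highest level, lowest paired ratios, extreme ratio at birth, nearness to a threshold, and nearness to these members. The labels call the replicates biological, and the p-values measure the spread between pools of 2 hypothalami. Reads carry no molecular identifiers here, so count intervals cover counting error only.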

Additional observations from a re-analysis of the deposited data

Results flagged for a closer look

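The 4 groups of each of the 42 named intervals were searched for a library far from the other 4, with a gap to its nearest neighbour above 0.71 of the group's range. Of 168 groups 15 had one, and chance flags about 1 in 20. P21 non-neuron replicate 1 was high at chr2:92369244-92369761 (9.763 CPM), chr6:85290280-85292802 (9.066 CPM) and chr6:118426935-118429253 (2.65 CPM). P0 non-neuron replicate 3 was high at the touching members chr19:6501619-6502946 (16.74 CPM) and chr19:6501492-6501619 (6.397 CPM). P0 neuron replicate 3 was high at chr10:126695823-126696812 (74.74 CPM) and chr2:174125152-174125550 (284.4 CPM), and P21 neuron replicate 2 was low at the last of these (78.13 CPM).

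P21 neuron replicate 5 held the only reads of its group at chr5:37635040-37635255 (0.226 CPM) and chr9:103013996-103015725 (0.3391 CPM), and was high at chr10:126694078-126695823 (8.589 CPM), where P0 non-neuron replicate 2 was low (8.821 CPM). P0 neuron replicate 5 was low at chr19:6503681-6504415 (19.11 CPM) and high at chr19:6498591-6501492 (0.6066 CPM). P0 non-neuron replicate 1 was high at chr10:126693196-126694078 (38.68 CPM).

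Among the neighbours without a shared cut site that were ranked above by adjusted p, the age change differed between the cell types at chr4:139131319-139132026 (interaction -1.299 on the log2 scale, edgeR adjusted p = 2.05e-07) and chr2:167456365-167456949 (interaction -0.7797, edgeR adjusted p = 0.0023). Both had a neuron ratio under 0.5 and were no members, so the choice of non-members set their non-neuron ratio outside 0.67 to 1.5, and these p-values do not allow for that choice.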

How the results depend on the processing

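The set depends on its thresholds: 350 intervals qualified with 20 reads in at least 5 libraries, 1388 with no read filter, 209 with a neuron ratio of at most 0.4 and 241 with a narrower window in non-neurons, beside 563. With a library left out the count was 467 to 661, and 193 of the 563 members were chosen every time. Other scalings gave 397 to 575, and 191 members were chosen under all 4. With scaling by total reads, 200 of the 397 intervals were members. That number was 426 of 426 with RLE scaling and 501 of 575 with upper-quartile scaling. With the median of the 5 values per group in place of the mean, 360 of 623 intervals were members. Members called lower in non-neurons numbered 21 with library totals in place of TMM, beside 86. With P0 replicates 4 and 5 only, 16 members differed between cell types at P0, beside 39, and 96 had an interaction below 0, beside 169. Of 241 neighbours within 5000 bp, 100 fell in neurons, and with members kept among those within 2000 bp, an alternative chosen after seeing the data, 54 of 103 fell. Library totals also moved the median log2 change of all tested intervals to 0.26 in both cell types, beside 0.06 in neurons and 0.03 in non-neurons. At chr9:103017731-103020610 the neuronal log2 change was 0.01985 with library totals, beside -0.18. The causes were not tested. With a library left out, 462 to 509 members were called lower in neurons, 67 to 102 in non-neurons, 36 to 42 differed at P0 and 153 to 175 had an interaction below 0. Likewise 47 to 53 neighbours without a shared site fell in neurons, 30 to 33 in non-neurons, and 105 to 113 touching ones in neurons. Coverage limits the thin members most.

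Whether same-numbered libraries of the cell types came from the same pools is not stated by the labels. Correlations of same-numbered libraries ran from -0.0831 to 0.322, and from -0.00701 to 0.322 within an age. These values cannot show whether the samples were paired. With the replicate block 505 members were called lower in neurons, 91 in non-neurons, 44 differed at P0 and 181 had an interaction below 0, while 52 neighbours without a shared site fell in neurons, 33 in non-neurons, and 113 touching ones in neurons.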
